A study of Mus musculus with 12 samples.

Results

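The TGF-beta ligands Tgfb1, Tgfb2 and Tgfb3 and the receptors Tgfbr1, Tgfbr2 and Tgfbr3 were followed across lungs of mice challenged with an allergen. So were the SMAD genes Smad2, Smad3, Smad6 and Smad7. The 10 genes were taken by name from a table of 49585 genes, with earlier results of these data known, and each of the 10 was above the filter on low values. TGF-beta ligands are made as latent dimers held in the extracellular matrix and have to be released before they can act. A released ligand binds the type II receptor encoded by Tgfbr2, which recruits and phosphorylates the type I receptor encoded by Tgfbr1. That receptor phosphorylates the proteins of Smad2 and Smad3, which enter the nucleus and change transcription, while Smad6 and Smad7 encode inhibitory SMADs that dampen the signal. In lung the pathway is known for its part in matrix deposition, airway remodelling and the restraint of immune cells.

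The lungs came from C57BL/6 mice in 4 groups of 3 libraries, numbered here in the order of the deposited table. Libraries 7 to 9 were from mice labelled Has2+/- that were stimulated with ovalbumin, a protein allergen, and libraries 10 to 12 from mice with the same genotype label that received saline. Libraries 1 to 3 were from wild-type (WT) mice stimulated with ovalbumin, and libraries 4 to 6 from WT mice that received saline. Has2 encodes an enzyme that makes hyaluronan, a sugar polymer of the extracellular matrix. The titles place the ovalbumin samples 24 after stimulation without naming the unit, the WT ovalbumin mice are described as sensitized and given ovalbumin through the nose, and neither the Has2 allele nor the ages and sexes of the mice are given. Nothing in the labels ties each library to a mouse of its own, so p-values measure the spread between libraries, which may be technical.

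The values are normalized read counts, called normalized units below, on a scale that was made identical in the 12 libraries, so the depth of each library is unknown. The lung epithelium markers, 8 in all, were above 0 in every library, with a summed level of 169383 to 202372 units. Has2 itself was weakly expressed and was not lower under the Has2+/- label. It had 6.67, 5.75 and 11.3 units in Has2+/- ovalbumin libraries, 7.67, 8.17 and 7.42 units in Has2+/- saline libraries, 3.50, 6.42 and 10.3 units in WT ovalbumin libraries and 6.67, 4.42 and 6.08 units in WT saline libraries. Averaged over treatments, its log2 difference between Has2+/- and WT was 0.32 (95% confidence interval -0.28 to 0.93, adjusted p = 0.684), so that the genotype rests on the labels, and Has2+/- below means libraries so labelled. Library 3 of the WT ovalbumin group and library 12 of the Has2+/- saline group stood apart from their groups. Across genes, Spearman correlations ran from 0.971 to 0.990 inside a group and from 0.954 to 0.990 between libraries of different groups. The summed level of 8 squamous epithelium markers, keratins among them, was 42.2 to 402 units in Has2+/- ovalbumin libraries and 162 to 34828 units in Has2+/- saline libraries, against 24.2 to 27459 units in WT ovalbumin libraries and 1948 to 30602 units in WT saline libraries. Library 12 was the lowest of its group in this sum and library 3 the highest of its group. Library 5 was likewise far below the rest of WT saline, at 1948 units against 30602 and 22603 units in libraries 4 and 6.

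Tgfb1 and Tgfbr1 were higher and Tgfbr3 and Tgfb3 lower in WT ovalbumin lungs than in WT saline lungs, while Tgfb2, Tgfbr2 and the 4 SMAD genes did not pass the test. Of the 10 genes, 2 rose and 2 fell at an adjusted p under 0.05 (limma, Benjamini-Hochberg over all 19017 genes tested), and 16.7% of all genes tested passed in this comparison, 8.65% higher and 8.05% lower. The median log2 change was -0.11 over the 10 genes and -0.027 over all genes tested. In Has2+/- lungs 0 rose and 1 fell, Tgfbr3, where 2.8% of all genes tested passed, 1.85% higher and 0.952% lower. There the median log2 change was -0.039 over the 10 genes and 0.0062 over all genes tested. Whole lung was sequenced, so here and below more cells of a type cannot be told apart from more RNA per cell.

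Promoter sequences are shown for Tgfb1, the ligand that rose, for Tgfb2, whose window holds a TATA box where that of Tgfb1 holds GC boxes, and for Smad6, whose window holds a SMAD-binding palindrome. They come from RefSeq on GRCm38.p6, the assembly also called mm10, and each window of 280 bases runs from 250 bases before the annotated start of transcription to 30 bases from it. Windows were found for 6 of the 10 genes. The Tgfb1 window is chr7:25686752-25687031 on the plus strand, the Tgfb2 window chr1:186705960-186706239 on the minus strand and the Smad6 window chr9:64022030-64022309 on the minus strand. They are written 5′ to 3′ along the strand of the gene.
Tgfb1: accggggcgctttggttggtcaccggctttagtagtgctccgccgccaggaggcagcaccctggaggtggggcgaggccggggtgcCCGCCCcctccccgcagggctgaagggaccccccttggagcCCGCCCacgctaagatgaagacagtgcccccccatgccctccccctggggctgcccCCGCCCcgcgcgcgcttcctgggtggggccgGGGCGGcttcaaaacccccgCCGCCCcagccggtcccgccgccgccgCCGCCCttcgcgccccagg
Tgfb2: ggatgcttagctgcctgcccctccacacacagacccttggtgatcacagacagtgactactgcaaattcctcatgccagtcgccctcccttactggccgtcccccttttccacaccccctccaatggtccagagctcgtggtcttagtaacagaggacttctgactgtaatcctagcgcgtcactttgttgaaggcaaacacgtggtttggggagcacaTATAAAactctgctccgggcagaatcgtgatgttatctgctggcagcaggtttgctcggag
Smad6: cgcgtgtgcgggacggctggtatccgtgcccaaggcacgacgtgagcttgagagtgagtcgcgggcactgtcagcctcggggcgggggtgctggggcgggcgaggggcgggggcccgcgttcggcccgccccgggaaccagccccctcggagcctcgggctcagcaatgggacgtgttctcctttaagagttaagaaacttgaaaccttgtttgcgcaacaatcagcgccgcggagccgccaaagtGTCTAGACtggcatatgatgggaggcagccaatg
Capitals mark GGGCGG, the GC box, on either strand in Tgfb1, TATAAA, the TATA box, in Tgfb2, and GTCTAGAC, the palindromic SMAD box, in Smad6. GGGCGG or its reverse complement occurred 6 times in the Tgfb1 window, 4 times in that of Smad6 (in lower case here), 2 times in that of Smad3 and in 1 of the windows of Tgfbr1, and not in that of Tgfb2, and 34.7% of the 32851 windows in the table hold it. TATAAA starts 31 bases before the Tgfb2 start and was found in 13.1% of all windows on either strand. GTCTAGAC, which reads the same on both strands, starts 4 bases before the Smad6 start and crosses it, and 63 windows (0.192%) hold it. TGANTCA, the AP-1 site, was in none of these windows and in 7.46% of all. GC content was 76.8% in the Tgfb1 window, 53.9% in that of Tgfb2 and 65.4% in that of Smad6, against a median of 52.5% over all windows. These are matches of letters, and no binding was measured.

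Tgfb1, which encodes the ligand best known from immune and inflamed tissue, lies on chromosome 7 at 25687002 to 25705077 (plus strand, GENCODE positions on mm10). It had 1071, 929 and 884 units in libraries 7 to 9 (Has2+/- ovalbumin) and 848, 967 and 868 units in libraries 10 to 12 (Has2+/- saline). WT lungs had 1332, 1120 and 1141 units with ovalbumin (libraries 1 to 3) and 726, 906 and 762 units with saline (libraries 4 to 6). Every WT ovalbumin library was above every other library of the 12, whereas the Has2+/- ovalbumin libraries overlapped the Has2+/- saline ones. In Has2+/- the mean was 961 ± 97.8 units with ovalbumin and 895 ± 63.9 units with saline, a log2 change of 0.10 (interval -0.10 to 0.31, adjusted p = 0.611). In WT the mean was 1198 ± 117 units with ovalbumin and 798 ± 94.9 units with saline (SD, n = 3 each), 50.3% higher with ovalbumin (log2 change 0.59, 95% confidence interval 0.38 to 0.79, adjusted p = 0.00117), and the call held in each of 21 alternative analyses, with adjusted p up to 0.0191. The order of the 4 means was WT ovalbumin, Has2+/- ovalbumin, Has2+/- saline and WT saline, and no neighbours in that order differed at the threshold (adjusted p = 0.124 for Has2+/- against WT after ovalbumin, 0.611 and 0.927 for the other two steps).

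Tgfb3, which encodes a ligand with a known part in lung and palate development, lies on chromosome 12 at 86056745 to 86079041 (minus strand). It had 403, 369 and 435 units in Has2+/- ovalbumin libraries and 445, 438 and 467 units in Has2+/- saline libraries. The WT libraries had 367, 360 and 348 units with ovalbumin, against 449, 496 and 399 units with saline. Both pairs of groups were separate, with the ovalbumin libraries lower. In Has2+/- the log2 change was -0.16 (interval -0.35 to 0.019, adjusted p = 0.317). In WT it was -0.31 (interval -0.50 to -0.13, adjusted p = 0.0200), and this call was lost without library 3, 4 or 5 (adjusted p = 0.0506, 0.0605 and 0.103), without libraries 3 and 12 together (0.0600) and without the trend and robust options of limma (0.0589). Tgfb2, which encodes the third ligand and lies on chromosome 1 at 186622792 to 186705989 (minus strand), ranged from 265 to 295 units in Has2+/- ovalbumin libraries, 217 to 301 units in Has2+/- saline libraries, 211 to 296 units in WT ovalbumin libraries and 269 to 315 units in WT saline libraries. Its groups overlapped, with log2 changes of 0.060 in Has2+/- (adjusted p = 0.848) and -0.24 in WT (adjusted p = 0.248).

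**Figure D1:**
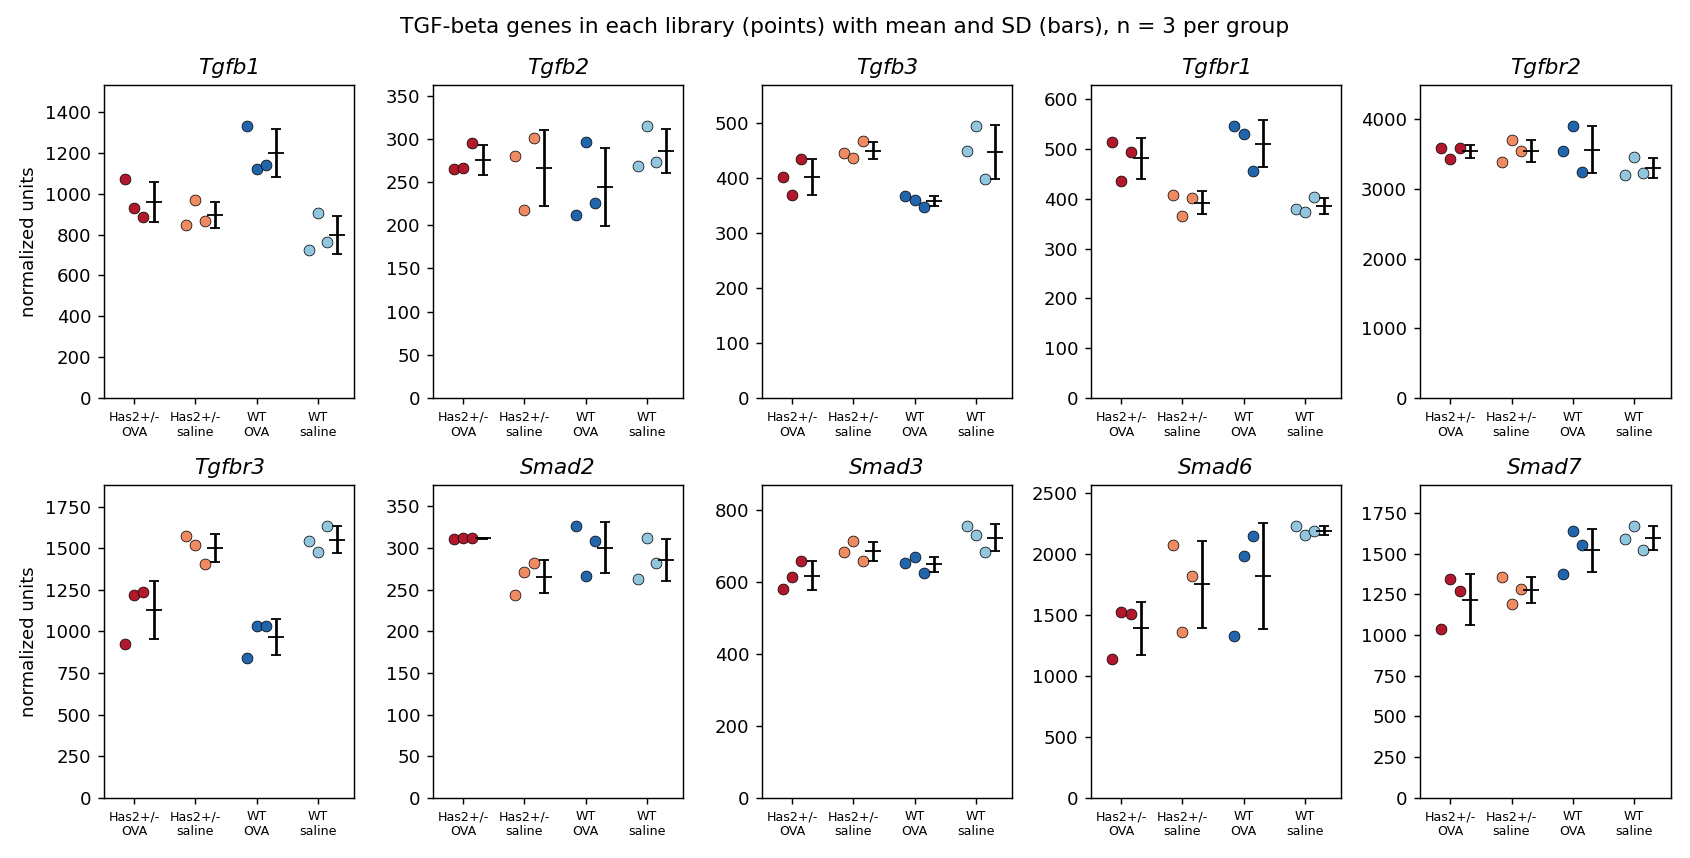
Level of each of the 10 genes in normalized units (vertical axis, from 0) in each library (points), with the group mean and SD (bars, n = 3), for the Has2+/- ovalbumin, Has2+/- saline, WT ovalbumin and WT saline groups. The 3 WT ovalbumin points of Tgfb1 lie above the other 9, the ovalbumin points of Tgfbr3 lie below the saline points in both genotypes, and the Has2+/- points of Smad7 lie below the WT points.

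The receptors diverged in WT: the type I receptor was higher and the co-receptor lower with ovalbumin, and the type II receptor stayed within its spread. Tgfbr3 encodes betaglycan, a co-receptor that presents ligand, TGF-beta 2 above all, to the type II receptor, and lies on chromosome 5 at 107106570 to 107289629 (minus strand). It had 927, 1218 and 1237 units in Has2+/- ovalbumin libraries and 1572, 1522 and 1408 units in Has2+/- saline libraries. In WT lungs it had 842, 1030 and 1031 units with ovalbumin and 1545, 1475 and 1637 units with saline. All 6 ovalbumin libraries were below all 6 saline libraries, a separation that 8.54% of all genes tested show in one direction or the other. The Has2+/- level fell by 25.4% (log2 change -0.42, interval -0.65 to -0.20, adjusted p = 0.0496). That call sat at the threshold: it was lost in 15 of 21 alternatives (adjusted p up to 0.209), among them those without library 2, 4, 5, 6, 7, 8, 10, 11 or 12 (adjusted p = 0.0605, 0.0717, 0.0670, 0.0668, 0.159, 0.0577, 0.181, 0.152 and 0.0671). The WT level fell by 37.9% with ovalbumin (log2 change -0.69, interval -0.91 to -0.46, adjusted p = 0.00114), and this call held in each of 21 alternatives (adjusted p up to 0.0155).

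Tgfbr1, on chromosome 4 at 47353222 to 47414931 (plus strand), had 515, 436 and 494 units in Has2+/- ovalbumin libraries and 408, 366 and 402 units in Has2+/- saline libraries. The WT libraries had 547, 530 and 456 units with ovalbumin and 379, 374 and 403 units with saline. The 6 ovalbumin libraries were all above the 6 saline libraries. In Has2+/- the log2 change was 0.29 (interval 0.11 to 0.48, adjusted p = 0.0769), and in WT the level was 1.32-fold higher with ovalbumin (log2 change 0.40, interval 0.22 to 0.59, adjusted p = 0.00560), a call kept in each of 21 alternatives (adjusted p up to 0.0412). Tgfbr2, on chromosome 9 at 116084293 to 116175360 (minus strand), had means of 3540 ± 97.9 units in Has2+/- ovalbumin, 3548 ± 158 units in Has2+/- saline, 3564 ± 334 units in WT ovalbumin and 3297 ± 143 units in WT saline libraries. Its groups overlapped, and its log2 changes of -0.0028 in Has2+/- (interval -0.15 to 0.14, adjusted p = 0.992) and 0.11 in WT (interval -0.033 to 0.25, adjusted p = 0.297) did not pass.

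None of the 4 SMAD genes passed in either ovalbumin comparison. Smad2, on chromosome 18 at 76241580 to 76310963 (plus strand), had 311, 312 and 312 units in Has2+/- ovalbumin libraries and 244, 271 and 282 units in Has2+/- saline libraries, which did not overlap (log2 change 0.23, interval 0.030 to 0.43, adjusted p = 0.193). In WT it had 327, 266 and 308 units with ovalbumin and 263, 312 and 282 units with saline, which overlapped (log2 change 0.072, adjusted p = 0.657). Smad3, on chromosome 9 at 63646767 to 63757994 (minus strand), had 581, 612 and 659 units in Has2+/- ovalbumin libraries and 683, 712 and 658 units in Has2+/- saline libraries. In WT it had 652, 668 and 626 units with ovalbumin and 756, 729 and 684 units with saline. The WT groups were separate and the Has2+/- groups touched at 1 library each. The log2 changes of Smad3 were alike in size, -0.15 in Has2+/- (adjusted p = 0.245) and -0.16 in WT (adjusted p = 0.138).

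Of the inhibitory SMADs, Smad6 had the widest intervals of the 10 genes. Smad6, on chromosome 9 at 63953076 to 64022059 (minus strand), had 1141, 1524 and 1504 units in Has2+/- ovalbumin libraries and 2070, 1362 and 1816 units in Has2+/- saline libraries. In WT it had 1326, 1980 and 2148 units with ovalbumin and 2231, 2152 and 2186 units with saline. Library 1 was far below the other WT libraries, and the highest WT ovalbumin library was just below the lowest WT saline library. The log2 changes were -0.32 in Has2+/- (interval -0.80 to 0.16, adjusted p = 0.449) and -0.30 in WT (interval -0.78 to 0.18, adjusted p = 0.389), and both intervals include changes of either sign. Smad7, on chromosome 18 at 75367529 to 75395935 (plus strand), had log2 ovalbumin changes of -0.076 in Has2+/- (adjusted p = 0.691) and -0.072 in WT (adjusted p = 0.632).

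Counted by separation alone, 4 of the 10 genes had Has2+/- ovalbumin libraries that did not overlap the Has2+/- saline libraries (Tgfbr1 and Smad2 higher, Tgfb3 and Tgfbr3 lower), where 24.3% of all genes tested did. In WT, 6 of the 10 were separate (Tgfb1 and Tgfbr1 higher, Tgfb3, Tgfbr3, Smad3 and Smad6 lower), where 33.8% of all genes tested were. In a comparison of ovalbumin with saline averaged over both genotypes, 5 of the 10 passed, against 22.4% of all genes tested, 11.4% higher and 11% lower. Tgfbr3 (log2 change -0.55, adjusted p = 0.000260), Tgfb3 (-0.24, adjusted p = 0.0101) and Smad3 (-0.15, adjusted p = 0.0328) fell, and Tgfbr1 (0.35, adjusted p = 0.000965) and Tgfb1 (0.34, adjusted p = 0.00223) rose. The Smad3 call was lost in 11 of 20 alternatives: with the squamous covariate described below (adjusted p = 0.111), without the trend and robust options of limma (0.0716), without libraries 3 and 12 together (0.0658) and without library 1, 3, 4, 5, 7, 8, 10 or 11 (0.0504, 0.0650, 0.0846, 0.0646, 0.0777, 0.0590, 0.0627 and 0.0806). Without library 2 Smad2 passed as well (adjusted p = 0.0498).

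**Figure D2:**
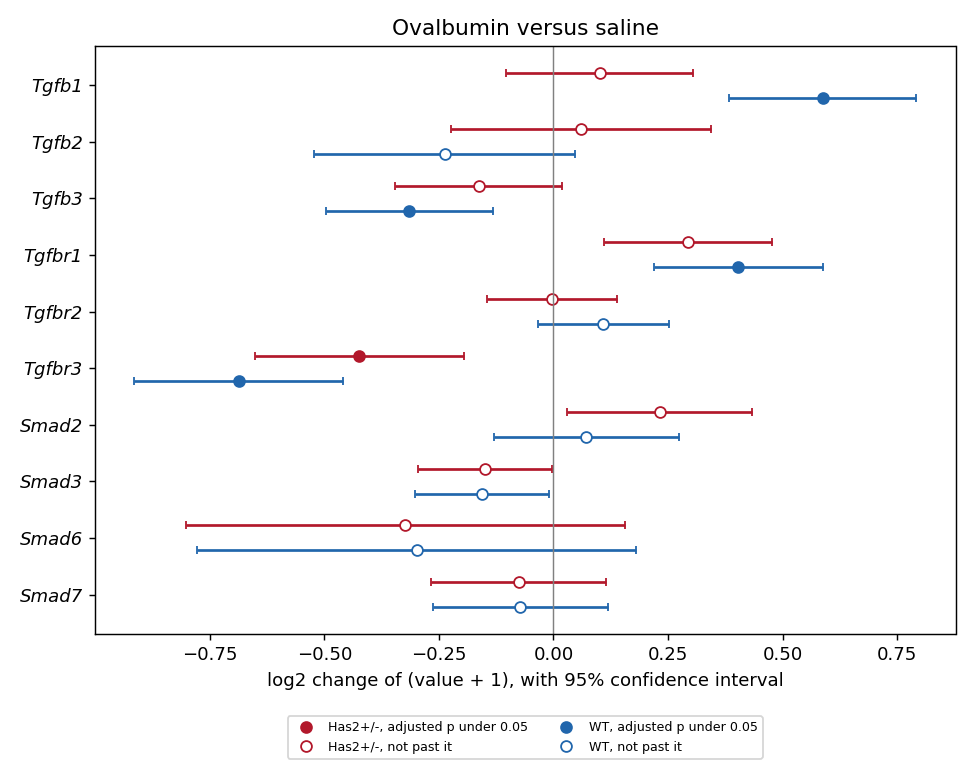
Log2 change of (value + 1) between ovalbumin and saline (horizontal axis) for each of the 10 genes in Has2+/- (red, upper) and WT (blue, lower), with 95% confidence intervals. Filled points passed an adjusted p of 0.05: Tgfb1, Tgfb3, Tgfbr1 and Tgfbr3 in WT, and Tgfbr3 in Has2+/-.

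Markers of several cell types moved with these changes in WT lungs, and their part in them was not tested. Of all genes tested, 8.65% rose and 8.05% fell in this comparison. Of the endothelial markers 5 of 7 fell, with a summed level of 22574 to 23396 units in WT ovalbumin libraries and 26053 to 27098 units in WT saline libraries. Of the fibroblast markers 5 of 7 fell and 1 rose (10698 to 14030 units with ovalbumin, 18834 to 20103 units with saline). Of the macrophage markers 6 of 7 rose. Their summed levels overlapped (21078 to 25452 units with ovalbumin, 19492 to 21592 units with saline), but most of that sum is Lyz2, the marker that did not pass, at means of 18189 units with ovalbumin and 18027 units with saline. Of the T cell markers 4 of 7 rose (477 to 684 units with ovalbumin, 308 to 476 units with saline). All 7 fat markers and 5 of 6 cardiomyocyte markers fell, with sums of 692 to 776 and 3456 to 3796 units with ovalbumin, against 2196 to 4890 and 8015 to 9924 units with saline. The fat marker Lep was at 0 in at least 1 library, as were the squamous markers Krt6a, Krt13 and Dsg3. Of the lung epithelium markers 1 of 8 rose, while their summed level was lower without overlap (169383 to 177497 units with ovalbumin, 193270 to 196046 units with saline). Most of that sum is Sftpc (means of 61415 units with ovalbumin and 74539 with saline) and Scgb1a1 (59588 and 69872). Each of these overlapped between the groups and did not pass. Of the squamous epithelium markers 0 of 8 passed, but all 8 log2 changes were negative (median -3.16), with libraries of a group far apart.

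In Has2+/- lungs fewer markers passed, as did fewer of all genes tested (2.8%, against 16.7% in WT). The log2 changes of all 7 macrophage and all 7 T cell markers were positive in both genotypes. Those of all 7 fat, all 6 cardiomyocyte and all 8 squamous markers were negative in both. The squamous median in Has2+/- was -3.36, with the saline libraries far apart. Of the macrophage markers 3 of 7 rose (24832 to 28608 units with ovalbumin, 22510 to 24187 units with saline, mostly Lyz2, which did not pass), 1 of 6 cardiomyocyte markers fell (4719 to 5863 units with ovalbumin, 6767 to 9786 units with saline) and 1 of 8 lung epithelium markers rose. None of the endothelial, fibroblast, fat, T cell or squamous markers passed. The sums were still separate for endothelium (22635 to 25705 units with ovalbumin, 25832 to 27751 units with saline), fibroblasts (13137 to 16955 units with ovalbumin, 18813 to 19294 units with saline) and fat (812 to 961 units with ovalbumin, 1109 to 2241 units with saline). With the squamous level of each library as a covariate, the 4 WT calls on Tgfb1, Tgfb3, Tgfbr1 and Tgfbr3 were kept. The Has2+/- call on Tgfbr3 was lost (limma, adjusted p = 0.209), as was the averaged call on Smad3. The squamous level was itself mostly lower in ovalbumin than in saline libraries, so this covariate takes up part of that contrast. The part of squamous tissue in these calls was not tested.

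The make-up of each role can be read only per length of transcript. Divided by the length of all annotated exons, the mean over the 12 libraries was 557 units per kb for Smad6, 426 for Tgfbr2, 310 for Smad7, 197 for Tgfbr3, 191 for Tgfb1, 123 for Tgfb3, 121 for Smad3, 67.7 for Tgfbr1, 46.2 for Tgfb2 and 33.1 for Smad2. In this order the ranges over libraries were separate between Tgfbr2 and Smad7, between Smad3 and Tgfbr1 and between Tgfbr1 and Tgfb2, and the other neighbours overlapped. Compared within each library, Smad7 was above Tgfbr3 and Tgfb1 above Tgfb3 in every library. The remaining neighbours changed order between libraries and are not ordered beyond their spread. The place of Tgfb1 depends on the length used: its exons join to 5042 bases but its longest coding transcript has 2175, and per kb of that transcript it reached 443 units and second place. The place of Smad2 is uncertain as well, because its GENCODE gene ends 5232 bases beyond the deposited end of the gene. Whether reads over those bases were counted is not known. If they were not, its level per kb and its share of the SMADs may be too low. The shares below use joined exons unless stated.

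Among the ligands, Tgfb1 made up 53.3 ± 3.56% of the summed level per kb in Has2+/- ovalbumin lungs and 49.8 ± 3.24% in Has2+/- saline lungs, against 61.5 ± 3.03% in WT ovalbumin lungs and 46.5 ± 1.73% in WT saline lungs (SD, n = 3 each). The Tgfb3 share was 33.3 ± 2.55% in Has2+/- ovalbumin, 37.3 ± 1.11% in Has2+/- saline, 27.5 ± 0.855% in WT ovalbumin and 39.0 ± 1.94% in WT saline lungs. Per kb of the longest coding transcript the Tgfb1 share was larger, at 71.8 ± 2.93%, 68.9 ± 2.81%, 78.1 ± 2.27% and 66.1 ± 1.54% in the same order of groups, and the Tgfb3 share smaller, at 19.4 ± 2.02%, 22.3 ± 1.18%, 15.1 ± 0.750% and 23.9 ± 1.54%, so the size of these shares depends on the length used. Among the receptors, Tgfbr3 made up 25.3 ± 3.39% in Has2+/- ovalbumin, 31.7 ± 1.61% in Has2+/- saline, 22.4 ± 2.70% in WT ovalbumin and 33.9 ± 1.79% in WT saline lungs. In WT ovalbumin libraries the Tgfb1 share was higher and the Tgfb3 and Tgfbr3 shares lower than in WT saline libraries, each without overlap under both lengths, and these shares were not tested. In Has2+/- the Tgfbr3 share was likewise lower with ovalbumin without overlap, while the Tgfb1 and Tgfb3 shares overlapped. The shares restate the levels above, and within a role a rise in 1 share lowers the rest by construction. Shares of the SMADs were dominated by Smad6, at 50.9 ± 1.61%, 55.2 ± 4.56%, 53.2 ± 5.29% and 57.0 ± 1.29% in the same order of groups.

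**Figure D3:**
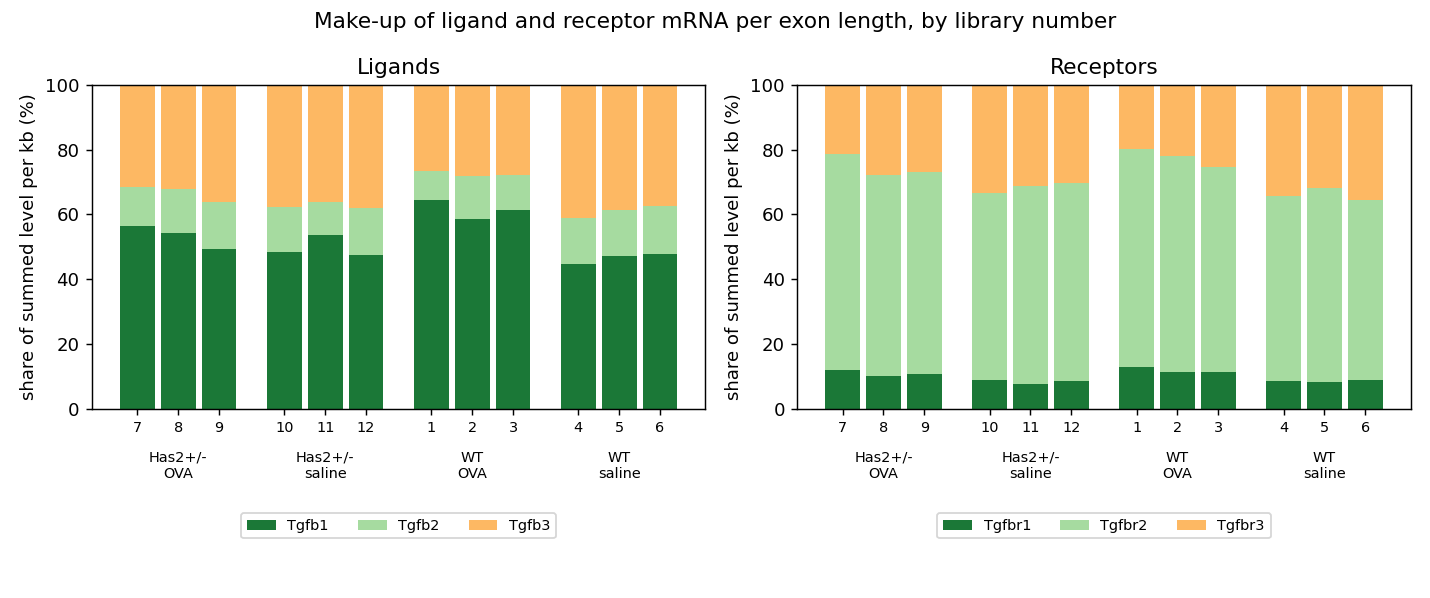
Share of each gene in the summed level per kb of exon (vertical axis, percent) of the 3 ligands and of the 3 receptors in each library (bars, numbered). The Tgfb1 share averages 61.5% in WT ovalbumin and 46.5% in WT saline libraries (78.1% and 66.1% per kb of the longest coding transcript, not plotted), and the Tgfbr3 share 22.4% in WT ovalbumin and 33.9% in WT saline libraries.

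Between genotypes, Smad7 had the smallest p of the 10 genes under both treatments, and it did not pass within either one. Smad7 encodes the inhibitory SMAD that brings ubiquitin ligases to the type I receptor. It had 1040, 1342 and 1271 units in Has2+/- ovalbumin libraries, against 1375, 1637 and 1552 units in WT ovalbumin libraries. It had 1355, 1193 and 1286 units in Has2+/- saline libraries, against 1590, 1673 and 1525 units in WT saline libraries. All 6 libraries labelled Has2+/- were below all 6 WT libraries, a separation that 0.81% of all genes tested show in one direction or the other. The log2 difference was -0.33 after ovalbumin (interval -0.52 to -0.14, adjusted p = 0.0904) and -0.32 under saline (interval -0.51 to -0.13, adjusted p = 0.656). Averaged over treatments it was -0.32 (interval -0.46 to -0.19), a change of -20.1%, with an adjusted p of 0.0357. In this comparison 0 of the 10 genes rose and 1 fell, against 0.421% of all genes tested, 0.226% higher and 0.195% lower. That call was lost in 12 of 20 alternatives, with adjusted p of 0.161 without libraries 3 and 12, 0.0757, 0.0855, 0.0873, 0.113 and 0.0814 without library 2, 3, 4, 5 or 6, and 0.0562, 0.0689, 0.10 and 0.0798 without library 9, 10, 11 or 12.

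The other 9 genes did not pass between genotypes. After ovalbumin the median log2 difference was -0.039 over the 10 genes and 0.014 over all genes tested. There 0 of the 10 passed by limma, 2 had an unadjusted p under 0.05 (Smad7 and Tgfb1), and 0.952% of all genes tested passed, 0.589% higher and 0.363% lower. For Tgfb1 the log2 difference between Has2+/- ovalbumin and WT ovalbumin libraries was -0.32 (a difference of -19.7%, interval -0.52 to -0.11, adjusted p = 0.124), and the groups did not overlap. Tgfbr3 had a log2 difference of 0.21 (interval -0.014 to 0.44, adjusted p = 0.346). Library 7 bears on both: without it Tgfb1 (adjusted p = 0.0357) and Tgfbr3 (adjusted p = 0.0338) passed. Separation alone held for 3 of the 10 genes after ovalbumin, Tgfb3 higher and Tgfb1 and Smad7 lower in Has2+/-, against 17.5% of all genes tested.

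Under saline the median log2 difference was -0.064 over the 10 genes and 0.00074 over all genes tested. Of the 10 genes 0 passed by limma, 1 had an unadjusted p under 0.05 (Smad7), and 0.0105% of all genes tested passed, with 0% lower. Smad6 and Smad7 were lower in Has2+/- without overlap, 2 of the 10 genes against 13.4% of all genes tested. The Smad6 difference was -0.34 under saline (interval -0.82 to 0.13, adjusted p = 0.938) and -0.37 after ovalbumin (interval -0.85 to 0.11, adjusted p = 0.436). Endothelial markers are given beside the inhibitory SMADs, which endothelium is known to express. Their summed levels were 22635 to 25705 units in Has2+/- ovalbumin and 22574 to 23396 units in WT ovalbumin libraries. Under saline the sums were 25832 to 27751 units in Has2+/- and 26053 to 27098 units in WT libraries. Of the 7 markers 0 passed after ovalbumin, where 0.952% of all genes tested passed, and 0 under saline (0.0105%). With so few calls among all genes, a count of 0 says little about these markers. Without overlap, Kdr was higher and Cldn5 lower in Has2+/- after ovalbumin (17.5% of all genes tested were separate). Under saline Tek was higher and Cldn5 and Egfl7 lower (13.4%). Their part in the SMAD differences was not tested.

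**Figure D4:**
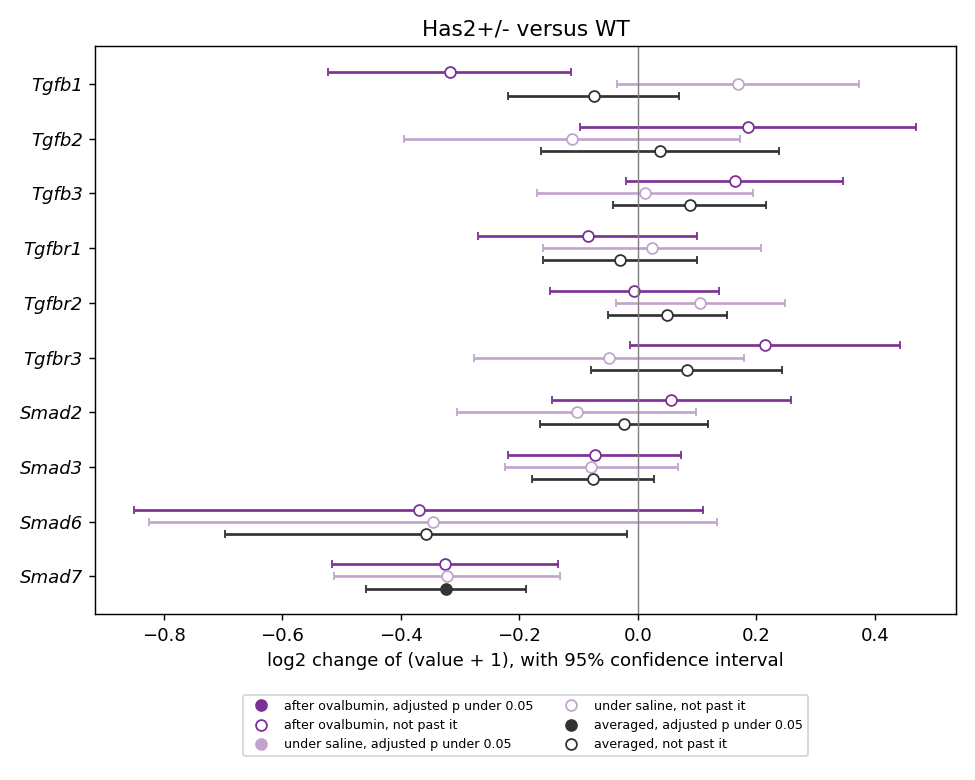
Log2 difference of (value + 1) between libraries labelled Has2+/- and WT (horizontal axis) for each of the 10 genes after ovalbumin (dark purple, upper), under saline (light purple, middle) and averaged over treatments (black, lower), with 95% confidence intervals. The filled point is Smad7 averaged over treatments (-0.32), and no difference within a treatment passed an adjusted p of 0.05.

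Whether the ovalbumin change itself differed between genotypes was tested as the Has2+/- change minus the WT change. By limma 0 of the 10 genes passed, 1 had an unadjusted p under 0.05, and 0.0158% of all genes tested passed, 0.00526% higher and 0.0105% lower. That gene was Tgfb1, with a difference of -0.49 (interval -0.78 to -0.20, unadjusted p = 0.00259, adjusted p = 0.404). For Tgfbr3 the difference was 0.26 (interval -0.059 to 0.59, adjusted p = 0.664), for Tgfbr1 -0.11 (interval -0.37 to 0.15) and for Tgfb3 0.15 (interval -0.11 to 0.41). A call in WT that was missed in Has2+/- is therefore not shown to be a difference between the genotypes for any of these genes.

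The wider pathway was described with 4 lists of known genes, 52 in all, each tested over all genes. In Has2+/- lungs 6 of the 52 rose and 2 fell with ovalbumin, and in WT lungs 18 rose and 8 fell, beside the shares of all genes given above. The median log2 change of the 52 was 0.055 in Has2+/- and 0.16 in WT. Of the target genes, in Has2+/- 5 of 20 rose and 0 fell, with a median log2 change of 0.31, and in WT 10 of 20 rose and 0 fell, with a median of 0.34. Averaged over genotypes 13 of 20 rose and 1 fell, Id3, which encodes an inhibitor of basic helix-loop-helix factors and is named because it was the exception (log2 change -0.21, adjusted p = 0.0187). Many of these are also matrix and immediate early genes that other signals are known to induce.

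Among the targets, Col1a1 and Col1a2, which encode the chains of type I collagen, had log2 changes of 0.61 and 0.37 in Has2+/- (adjusted p = 0.00505 and 0.0216) and of 1.01 and 0.79 in WT (adjusted p = 2.81e-05 and 4.32e-05). Col1a1 averaged 10633 units in Has2+/- ovalbumin and 6936 units in Has2+/- saline lungs, against 13111 units in WT ovalbumin and 6519 units in WT saline lungs. Col3a1, for type III collagen, rose in Has2+/- by 0.71 (adjusted p = 0.0305) and in WT by 0.99 (adjusted p = 0.00168). Tagln, an actin-binding smooth muscle gene, rose in Has2+/- by 0.35 (adjusted p = 0.0349) and had a log2 change of 0.18 in WT (adjusted p = 0.151).

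Junb, an AP-1 subunit gene that TGF-beta is known to induce, was the 1 gene of the 52 whose ovalbumin change differed between the genotypes. It had 1006, 854 and 786 units in Has2+/- ovalbumin libraries and 843, 997 and 812 units in Has2+/- saline libraries, which overlapped. The WT libraries had 1758, 1342 and 1630 units with ovalbumin and 710, 743 and 683 units with saline, which were far apart. Its log2 change was -0.0053 in Has2+/- (adjusted p = 0.990) and 1.14 in WT (adjusted p = 8.19e-05), and after ovalbumin it was lower in Has2+/- by a log2 difference of -0.84 (adjusted p = 0.00563). That genotype call was lost in 2 of 21 alternatives (adjusted p up to 0.0671). Under saline Junb was higher in Has2+/- than in WT without overlap (means of 884 and 712 units), which did not pass and is part of the difference below. The difference of the changes, -1.14 (interval -1.48 to -0.81), had an adjusted p of 0.0331, which was lost in 14 of 20 alternatives (adjusted p up to 0.187), among them those without library 1, 3, 4, 5, 6, 8, 9, 10 or 11 (adjusted p = 0.0618, 0.120, 0.127, 0.0751, 0.184, 0.187, 0.0967, 0.114 and 0.0605).

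Of 12 genes for latency and activation, 1 rose and 1 fell in Has2+/-, where 2.8% of all genes tested passed. In WT 5 rose and 1 fell, where 16.7% of all genes tested passed. Ltbp4, which encodes a protein that tethers latent TGF-beta to elastic fibres, fell in Has2+/- by 0.51 on the log2 scale (adjusted p = 0.0311) and in WT by 0.75 (adjusted p = 0.00112). Fbn1, for the microfibril protein fibrillin 1 that holds latent complexes, rose in Has2+/- by 0.33 (adjusted p = 0.0370) and in WT by 0.58 (adjusted p = 0.000364). Furin, for the protease that cleaves the ligand precursors, had a log2 change of 0.095 in Has2+/- (adjusted p = 0.486) and rose in WT by 0.45 (adjusted p = 0.000775), and after ovalbumin it was lower in Has2+/- than in WT (log2 difference -0.36, adjusted p = 0.0232). That genotype call was lost in 7 of 21 alternatives (adjusted p up to 0.157), among them those without library 1, 3, 8 or 9 (adjusted p = 0.0801, 0.0545, 0.124 and 0.0926). Nrros, whose product holds latent TGF-beta 1 on myeloid cells, rose in WT by 0.56 (adjusted p = 0.0163), beside the macrophage markers given above. In Has2+/- it averaged 445 units with ovalbumin and 331 with saline, separate as well, but did not pass.

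Of 8 other receptors and SMADs, 0 rose and 3 fell in WT, where 16.7% of all genes tested passed. In Has2+/- 0 rose and 1 fell, where 2.8% of all genes tested passed. The 1 was Smad9, which encodes a SMAD of the BMP branch and fell by 0.67 on the log2 scale in Has2+/- (adjusted p = 0.0383) and by 1.24 in WT (adjusted p = 0.000295). It averaged 98.3 ± 24.1 units in Has2+/- ovalbumin and 154 ± 13.3 units in Has2+/- saline lungs, against 64.9 ± 4.93 units in WT ovalbumin and 154 ± 12.2 units in WT saline lungs. Acvrl1 and Bmpr2, BMP-branch receptors best known in endothelium, fell in WT by 0.24 and 0.30 (adjusted p = 0.0152 and 0.0360), beside the fall of 5 of 7 endothelial markers. Their log2 changes in Has2+/- were -0.24 and -0.20 (adjusted p = 0.0546 and 0.248).

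Of 12 regulators of receptor and SMAD, 0 passed in Has2+/- by limma (2 had an unadjusted p under 0.05), where 2.8% of all genes tested passed. At that share a count of 0 says little about these genes. In WT 3 rose and 4 fell, where 16.7% of all genes tested passed. Skil, for the SMAD co-repressor SnoN, rose in WT by 0.34 (adjusted p = 0.00563), and Pmepa1, which encodes an inhibitor of SMAD phosphorylation, by 0.52 (adjusted p = 0.0159). Zfyve9, for the SMAD anchor SARA, fell in WT by 0.46 (adjusted p = 0.00829), and Bambi, for a decoy receptor, by 0.56 (adjusted p = 0.0183). Within this list genes that dampen the signal therefore moved in both directions. In Has2+/- lungs Skil averaged 821 units with ovalbumin and 722 with saline, Pmepa1 780 and 617 and Bambi 79.0 and 97.6. Each of these was separate in the same direction as in WT, where 24.3% of all genes tested were separate in Has2+/-. Zfyve9 averaged 415 and 461 units there and overlapped.

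Several of these pathway calls lie near the threshold and were lost when any of several libraries was left out, while the log2 changes kept their sign. Over all alternatives they ran, in WT, from 0.40 to 0.65 for Nrros, -0.30 to -0.21 for Acvrl1, -0.35 to -0.22 for Bmpr2, 0.37 to 0.67 for Pmepa1 and -0.70 to -0.44 for Bambi. In Has2+/- they ran from -0.61 to -0.39 for Ltbp4, 0.26 to 0.37 for Fbn1, -0.78 to -0.45 for Smad9, 0.30 to 0.42 for Col1a2, 0.56 to 0.80 for Col3a1 and 0.27 to 0.44 for Tagln. With the squamous covariate the WT calls on Nrros, Acvrl1, Bmpr2 and Pmepa1 were lost (adjusted p = 0.0843, 0.0641, 0.111 and 0.0697), as were the Has2+/- calls on Ltbp4, Fbn1, Smad9, Col1a2 and Col3a1 (0.129, 0.202, 0.144, 0.140 and 0.103). With libraries left out, in WT, the calls on Nrros (without library 1, 4 or 6, adjusted p = 0.0556, 0.0625 and 0.0696), Acvrl1 (1, 5 or 6, 0.0629, 0.0730 and 0.0734), Bmpr2 (1, 4, 5 or 6, 0.152, 0.117, 0.102 and 0.0565), Pmepa1 (1, 4 or 6, 0.0730, 0.0533 and 0.0671) and Bambi (3, 4 or 5, 0.0517, 0.0519 and 0.0919) were lost. In Has2+/-, Col1a1 was kept whichever library was left out and was lost without the trend and robust options (adjusted p = 0.0668). The calls there on Ltbp4, Fbn1, Smad9, Col1a2, Col3a1 and Tagln were lost without library 7 (adjusted p = 0.0708, 0.138, 0.163, 0.0898, 0.171 and 0.133) and without library 11 (0.109, 0.109, 0.0888, 0.0540, 0.0981 and 0.148). Without library 10 those on Ltbp4, Fbn1, Smad9, Col1a2 and Col3a1 were lost (0.104, 0.104, 0.159, 0.125 and 0.107). Without library 8 Ltbp4, Fbn1, Col3a1 and Tagln were lost (0.0612, 0.0901, 0.0740 and 0.0860), and without library 12 Ltbp4, Fbn1, Smad9 and Tagln (0.0676, 0.0949, 0.0777 and 0.0765). Leaving out a WT saline library also removed Fbn1 and Tagln (library 4, 0.0547 and 0.0521) and Smad9 (library 4, 5 or 6, 0.0532, 0.0557 and 0.0549). Those libraries are in neither group compared, so leaving them out does not move these log2 changes. They enter through the spread shared by the 4 groups, the filter on low values and the adjustment over all genes. Which of these removed the calls was not tested.

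**Figure D5:**
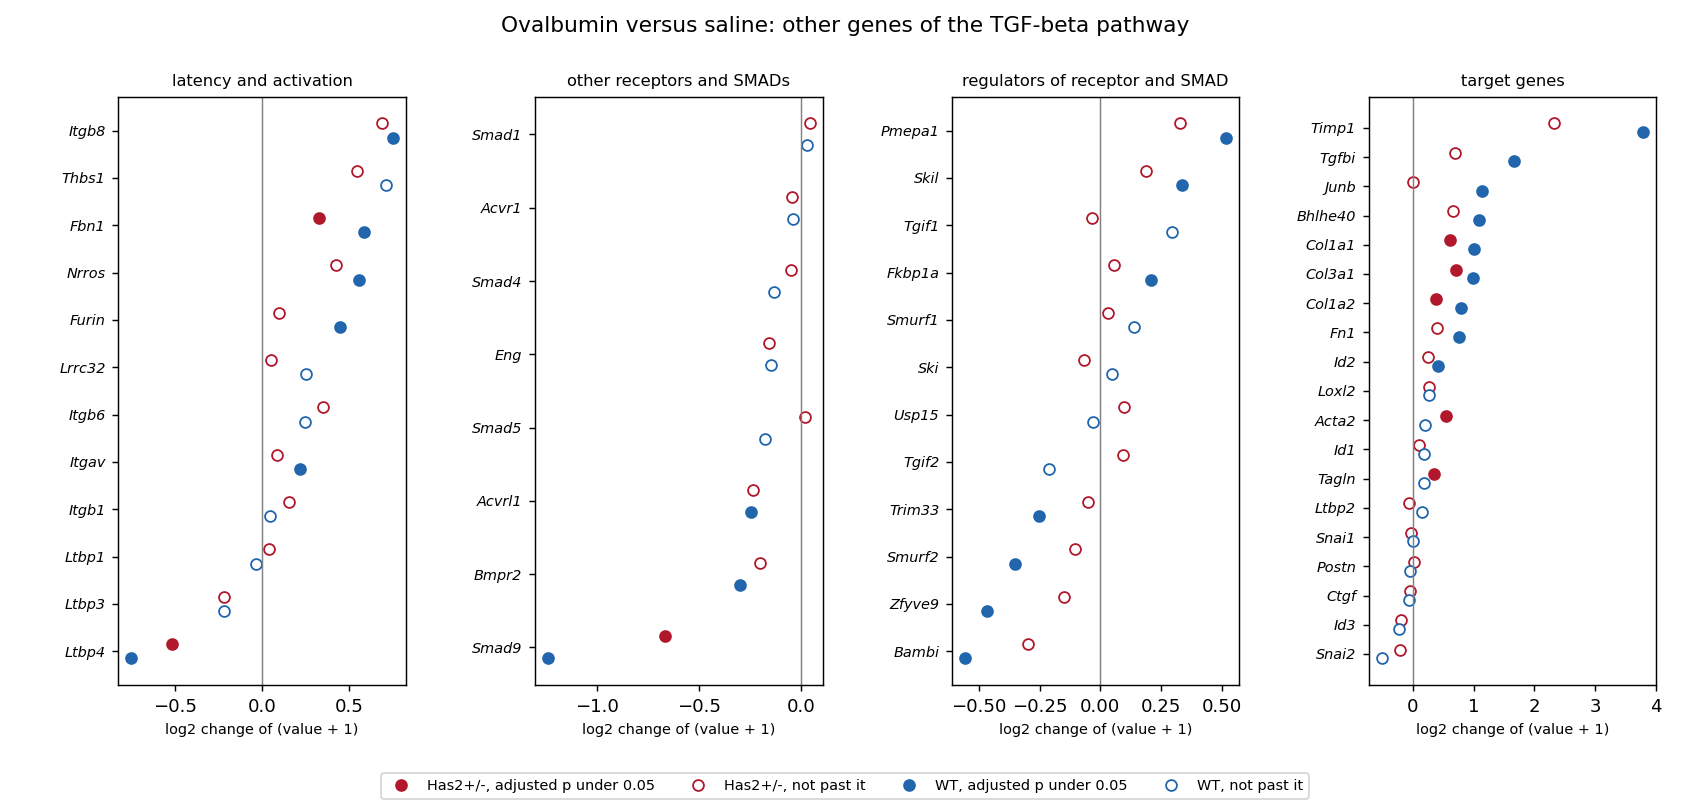
Log2 change of (value + 1) between ovalbumin and saline (horizontal axes, scaled separately) for 51 of the 52 genes of the 4 pathway lists in Has2+/- (red, upper) and WT (blue, lower). Filled points passed an adjusted p of 0.05, and Ctgf is the table's name for Ccn2. Among the target genes every filled point lies to the right of 0, and Smad9 lies farthest to the left among the other receptors and SMADs.

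The genes whose pattern over the 12 libraries was most like that of a ligand, a receptor and a SMAD were found by the root mean square difference of centred log2 values, among 11409 genes with a mean of at least 50 units. For Tgfb1 they were Tnfaip2 (0.0653), Etv6 (0.0784) and Il4ra (0.0793), against a median of 0.293 over all candidates. For Tgfbr3 they were Pink1 (0.0547), Ntn4 (0.0708) and Ltbp4 (0.0712), against a median of 0.338, so that the pathway gene Ltbp4 was among the 3 nearest to Tgfbr3. For Smad3 they were Dnajb12 (0.0445), Elmsan1 (0.0452) and Mta1 (0.0505), against a median of 0.187. The likeness covers 12 libraries that share the contrast of ovalbumin with saline and is given as a description.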

How the data were processed

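Lung RNA was sequenced in 12 libraries, 3 in each of 4 groups. The signal values are the authors' normalized expression values, per the file headers; once sorted, the 12 columns hold the same values (largest difference 0) and each sums to 6852201, so the deposited values were quantile-normalized and library depth is unknown. A further 12 deposited columns with transformed (log2) values of the same libraries were not used. The score columns are the authors' signed fold changes from an EDGE test and the p-value columns its FDR-corrected p-values, per the file headers; both are quoted only in the closing section. The build is mm10, per the submitters' processing notes; aligner and counter: not given in the sources used here. Both rRNA depletion and poly-A purification are named by the protocol in the labels, which limits comparisons between genes. Column codes for genotype and treatment were read as the groups of the titles, and their running numbers match no title.

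Limma 3.58.1 in R 4.3.3 was fitted to log2(value + 1), its trend and robust options on, over 12 libraries with 1 mean per group (8 residual degrees of freedom), for the 19017 genes whose mean reached 1 in any group. Fold changes are on that log2(value + 1) scale. Tests were two-sided, with Benjamini-Hochberg adjustment within each comparison and a threshold of 0.05. An exact permutation test of 3 against 3 libraries cannot go below p = 0.1 and was not used. The members and lists were chosen with earlier results of these data known. The averaged comparisons and the squamous covariate were added after seeing the data. From each pathway list, up to 4 genes with the smallest adjusted p past the threshold were named per comparison, except 1 gene that is not reported here but counts in its list; likeness was measured for the member of each role with the smallest ovalbumin p. Names were matched by symbol to GENCODE M21 for positions and lengths; Ccn2 was found as Ctgf, and the markers Itgam and Cavin2 are not used here. The script was tested on simulated data.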

Additional observations from a re-analysis of the deposited data

Results flagged for a closer look

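The ovalbumin change of Junb differed between the genotypes by a test of the difference itself: the Has2+/- change minus the WT change was -1.14 on the log2 scale (limma, adjusted p = 0.0331). The adjusted p ran from 0.00367 to 0.187 over 20 alternatives and was past 0.05 in 14 of them, while the difference itself stayed between -1.26 and -1.05. Junb means were 882 ± 113 units in Has2+/- ovalbumin and 884 ± 99.3 units in Has2+/- saline libraries, against 1577 ± 213 units in WT ovalbumin and 712 ± 29.9 units in WT saline libraries (SD, n = 3 each). No cause was tested.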

How the results depend on the processing

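Of 1964 values of named genes under the alternatives, 1780 kept their direction and side of the threshold, 139 lost and 3 gained a call, and 42 changed sign; the cause of the changes was not tested. No paired analysis was possible because the columns carry only running library numbers that match no replicate number in the titles. The unknown depth limits what can be said of weakly expressed genes such as Has2. Median-of-ratios factors were 0.985 to 1.02, and no rescaling moved the median of all genes by 0.1 or more.

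Counts of genes that passed are given here for the 10 genes, the 52 pathway genes and all genes tested. For ovalbumin in WT (4, 26 and 3175), the pathway count was 16 without the trend and robust options and the count of all genes 1826 with the squamous covariate. For ovalbumin in Has2+/- (1, 8 and 532), the first was 0 with a pseudocount of 0.1 or 10, no filter, no trend and robust options, the squamous covariate or only the groups compared. Without a filter the others were 5 and 350, without the trend and robust options 0 and 51, and with the covariate 2 and 76; without libraries 3 and 12 all genes came to 933. For Has2+/- against WT under saline (0, 0 and 2), all genes came to 1 with a pseudocount of 0.1, 5 without the trend and robust options, 4 without libraries 3 and 12 and 12 with only the groups compared. After ovalbumin (0, 2 and 181), the pathway count and that of all genes were 0 and 10 without the trend and robust options, 1 and 41 without libraries 3 and 12, and 0 and 7 with only the groups compared; all genes came to 105 without a filter. For the difference of the ovalbumin changes (0, 1 and 3), the pathway count was 0 and that of all genes 0 with a pseudocount of 0.1, with a minimum mean of 10 and without libraries 3 and 12, 0 and 1 after median-of-ratios rescaling, and 0 and 5 without the trend and robust options. For ovalbumin averaged (5, 32 and 4261) they were 20 and 1723 with the covariate. For genotype averaged (1, 0 and 80), the first was 0 without a filter, without the trend and robust options and without libraries 3 and 12, and all genes came to 9 without the trend and robust options and 17 without libraries 3 and 12.

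Leaving out each library in turn gave, for ovalbumin in WT, 3 to 4, 16 to 27 and 1653 to 3517; in Has2+/-, 0 to 1, 1 to 13 and 51 to 896; for genotype under saline, 0, 0 and 2 to 8; after ovalbumin, 0 to 2, 1 to 8 and 17 to 770; for the difference of the changes, 0, 0 to 1 and 0 to 25; for ovalbumin averaged, 4 to 6, 26 to 33 and 3188 to 4533; and for genotype averaged, 0 to 1, 0 to 3 and 19 to 259. Library 7 gave the highest of these counts in the genotype comparison after ovalbumin, the difference of the changes and the genotype average.

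Signs turned in values near 0. With the squamous covariate the log2 change was -0.093 for Tgfb2 with ovalbumin in Has2+/-, -0.0019 for Tgfb3 between genotypes under saline and -0.021 for Tgfbr2 with ovalbumin averaged. Without libraries 3 and 12 it was -0.015 for Tgfb3 between genotypes under saline and -0.035 for Tgfb2 between genotypes averaged, and, in the difference of the changes, -0.048 for Smad3 (-0.020 after median-of-ratios rescaling), 0.15 for Smad6 and 0.017 for Smad7. With 1 library left out, ranges that crossed 0 were, for ovalbumin in Has2+/-, -0.080 to 0.15 for Tgfb2, -0.035 to 0.030 for Tgfbr2 and -0.15 to 0.033 for Smad7. For genotype under saline they were -0.21 to 0.028 for Tgfb2, -0.068 to 0.088 for Tgfb3 and -0.0057 to 0.074 for Tgfbr1, and after ovalbumin -0.073 to 0.063 for Tgfbr2 and -0.027 to 0.12 for Smad2. For the difference of the changes they were -0.042 to 0.049 for Smad3, -0.24 to 0.11 for Smad6 and -0.078 to 0.11 for Smad7, and for genotype averaged -0.010 to 0.11 for Tgfb2, -0.070 to 0.0051 for Tgfbr1 and -0.065 to 0.0097 for Smad2.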

Other observations

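The authors' deposited table holds signed fold changes for each pair of groups, which were read as the second-named group set against the first, so that a negative value means lower in the second. For WT ovalbumin against WT saline, the authors' deposited table gives Tgfb1 a value of -1.54 (FDR-corrected p = 0.000200), Tgfbr1 -1.36 (0.0233) and Tgfbr3 1.59 (0.000107), the same 3 genes whose WT calls held in each alternative, and Tgfb3 1.23 (0.322), which did not pass there. For Has2+/- ovalbumin against Has2+/- saline, the authors' deposited table gives Tgfbr3 1.34 (0.124) and Tgfb1 -1.07 (1.00). Between genotypes, the authors' deposited table gives Smad7 -1.29 after ovalbumin (0.367) and -1.25 under saline (1.00), lower in Has2+/- under this reading.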
